A study of Mus musculus with 48 samples.

Results

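The interferon-stimulated genes described here are 9 mouse genes: Isg15, Usp18, Bst2, Ifit1, Ifit3, Oasl2, Rsad2, Irf7 and Cxcl10. They were listed by symbol and form 9 of the 20738 genes with a named feature on the array. Each gene is represented by the feature with the highest mean over all 48 arrays. A choice was needed for Isg15 and Cxcl10 only, since the other 7 genes had a single named feature.

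Interferons are secreted by cells that sense foreign or misplaced nucleic acid. Type I interferons bind IFNAR1 and IFNAR2, and the kinases JAK1 and TYK2 then activate transcription factors that, with STAT2 and IRF9, bind the interferon-stimulated response element in the promoters of target genes. The proteins of these genes block viral entry, translation and release, and a few of them feed back on the pathway. Lung epithelium and vascular cells both carry type I receptors, while type III receptors are largely restricted to epithelium.

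The arrays held RNA of 2 cultured cell types from C57Bl/6J mice: alveolar epithelial type II cells (AECII), which make surfactant, and pulmonary arterial smooth muscle cells (PASMC). Each cell type had 3 conditions with 8 arrays each. Control arrays (AECII Ctrl and PASMC Ctrl) carry the label room air, and the other arrays carry the label smoke: these cultures received 15% extract of e-cigarette vapour (ECVE) for 24 h, prepared from liquid with 0 mg/ml nicotine (0mg) or 18 mg/ml nicotine (18mg). AECII were exposed 24 h after isolation in medium with 10% fetal bovine serum. PASMC were isolated with iron particles, passaged, and kept in medium with 15% serum, so cell type, time in culture and medium cannot be told apart. The cells came from 8 mice whose age and sex are not given in the sources used here, and the labels do not tie an array to a mouse. Arrays were therefore treated as independent, and p-values measure the spread between arrays. With 8 mice for 48 arrays, arrays must share mice, so the numbers of independent animals are lower than the numbers of arrays. Which arrays share a mouse is not known, and this sharing was not modelled.

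The deposited values are log2 signals that share 1 distribution, from 1.52 to 15.89, with array medians of 2.97 to 2.98. Correlations between arrays of a group ran from 0.97 to 0.98 in AECII and from 0.952 to 0.98 in PASMC. The surfactant gene Sftpc read 13.80 to 14.86 on every AECII array, and the smooth muscle actin gene Acta2 read 14.33 to 15.46 on every PASMC array. Each was also found in the other cell type: Sftpc ranged from 1.72 to 11.82 within PASMC, and Acta2 from 10.93 to 12.83 within AECII. Of the 10 AECII markers examined, Slc34a2 had a mean under the array median in both cell types, and Sftpa1 and Napsa in PASMC alone. In bulk RNA, fewer cells of a type and less RNA per cell cannot be told apart.

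The promoters of the members were searched for the core of the interferon-stimulated response element, GAAANNGAAA, which reads TTTCNNTTTC on the other strand, in the 300 bases from 250 before to 50 after the RefSeq start (GRCm38.p6). A promoter was listed for 8 of the 9 members, all except Usp18. The core was present in 6 of these 8 promoters, against 3.44% of the 32851 promoters of the table. It occurred 3 times in Isg15, with overlapping matches that began 78, 72 and 66 bases before the start. Bst2 had 2 overlapping matches, Ifit1 and Ifit3 had 2 separate ones, and Rsad2 and Cxcl10 had 1 each. No match lay in the windows of Irf7 and Oasl2. Both still varied with the mean of the other members on PASMC arrays, at r = 0.91 for Irf7 and 0.92 for Oasl2. Whether the core bears on which genes vary together was not tested. The gamma-activated site TTCNNNGAA, which reads the same on both strands and can share its GAA end with the core, was found in 1 of the 8 promoters (Bst2) and in 8.3% of all promoters. Among the other genes of the pathway, 21 of 78 promoters held the response element core and 20 of 78 the gamma-activated site. The 250 bases before the start are shown for Isg15 (chr4:156200819-156201068, minus strand), Bst2 (chr8:71537473-71537722, minus strand), Ifit1 (chr19:34640639-34640888, plus strand) and Cxcl10 (chr5:92348890-92349139, minus strand), since the first 3 of these genes varied together below and the last did not. Each is written 5′ to 3′ on the gene's strand, with matches to the core in capitals.
Isg15: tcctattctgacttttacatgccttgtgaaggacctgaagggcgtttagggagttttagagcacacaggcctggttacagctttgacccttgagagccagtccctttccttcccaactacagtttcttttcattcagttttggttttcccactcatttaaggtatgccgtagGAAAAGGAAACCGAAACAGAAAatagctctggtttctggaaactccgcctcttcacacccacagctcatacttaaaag
Bst2: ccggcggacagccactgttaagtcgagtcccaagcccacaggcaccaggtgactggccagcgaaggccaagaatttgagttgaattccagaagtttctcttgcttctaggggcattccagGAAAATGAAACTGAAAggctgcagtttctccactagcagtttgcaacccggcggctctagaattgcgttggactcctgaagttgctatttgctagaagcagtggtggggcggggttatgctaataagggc
Ifit1: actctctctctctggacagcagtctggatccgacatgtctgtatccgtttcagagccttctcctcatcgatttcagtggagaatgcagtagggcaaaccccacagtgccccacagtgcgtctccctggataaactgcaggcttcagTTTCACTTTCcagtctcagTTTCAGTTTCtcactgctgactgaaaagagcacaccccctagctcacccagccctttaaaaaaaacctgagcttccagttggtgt
Cxcl10: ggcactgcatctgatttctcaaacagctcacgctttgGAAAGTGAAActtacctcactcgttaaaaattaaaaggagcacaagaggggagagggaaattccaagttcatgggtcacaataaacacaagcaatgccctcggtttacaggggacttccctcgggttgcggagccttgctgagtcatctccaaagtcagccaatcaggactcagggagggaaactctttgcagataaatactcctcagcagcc

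**Figure D1:**
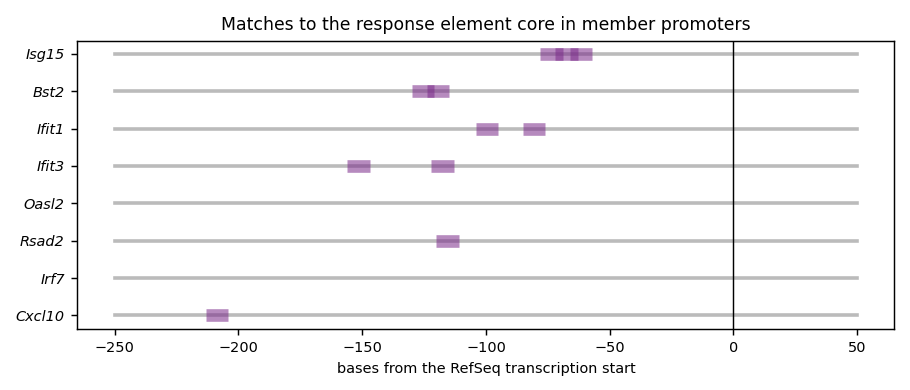
Positions of the response element core (purple blocks of 10 bases, darker where matches overlap) along the promoter window of 8 members, in bases from the RefSeq start (black line). Isg15 holds 3 matches closest to the start, Cxcl10 holds 1 at 213 bases before it, and Irf7 and Oasl2 hold none.

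Isg15 (chr4:156199424-156200818) encodes a ubiquitin-like protein that is joined to other proteins. On AECII arrays its log2 signal lay in a narrow band: 7.66 to 8.52 in Ctrl (median 8.06), 7.80 to 8.33 in 0mg (median 7.97) and 7.69 to 8.75 in 18mg (median 7.90). PASMC arrays spread over a far wider range, from 7.44 to 11.02 in Ctrl (median 10.62), from 7.39 to 12.20 in 0mg (median 10.31) and from 7.78 to 11.53 in 18mg (median 10.31). Each PASMC condition held 1 array at the AECII level, and the other 7 stood above every AECII array. The order of the means was PASMC 18mg, PASMC 0mg, PASMC Ctrl, AECII Ctrl, AECII 0mg and AECII 18mg, and the conditions of a cell type differed by less than their spread. A second Isg15 feature followed the first over 24 PASMC arrays, after centring each condition on its mean, with r = 0.97, and over 24 AECII arrays with r = 0.46.

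Usp18 (chr6:121245906-121270917) encodes the protease that removes ISG15 from proteins and also restrains signalling at IFNAR2. Its log2 signal had medians of 5.57, 5.58 and 5.46 in AECII Ctrl, 0mg and 18mg, with a full range of 4.27 to 5.92. In PASMC the medians were 6.73, 6.33 and 6.27 and the full range was 5.13 to 8.00. The lower PASMC arrays thus overlapped the AECII arrays in every condition.

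Bst2 (chr8:71534255-71537472) encodes tetherin, which holds budding virus at the cell surface. The AECII arrays ran from 9.05 to 9.47 in Ctrl (median 9.18), from 8.76 to 9.45 in 0mg (median 9.10) and from 8.79 to 9.50 in 18mg (median 9.11). In PASMC the values were 8.82 to 10.84 (median 10.38), 8.94 to 11.32 (median 10.08) and 9.01 to 11.16 (median 9.99). As for Isg15, a single control PASMC array fell below all AECII controls and the other 7 were above them.

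The 4 antiviral effectors behaved less uniformly. Ifit1 (chr19:34640889-34650009) and Ifit3 (chr19:34583119-34588982) encode partner proteins that bind viral RNA and limit its translation. Both belong to a family of close copies, and the probe sequences were not analysed here, so signal from a related gene was not checked. Ifit1 was dim in AECII, with medians of 3.56 in Ctrl, 2.69 in 0mg and 3.19 in 18mg, and brighter in PASMC, with medians of 4.77, 4.86 and 4.66 and single arrays from 2.67 to 7.49. Ifit3 had medians of 6.29, 6.22 and 5.92 in AECII and of 6.98, 6.63 and 6.83 in PASMC. The PASMC arrays enclosed the AECII arrays: values ran from 5.05 to 7.05 over all AECII arrays and from 3.44 to 8.71 over all PASMC arrays.

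Oasl2 (chr5:114896926-114912245), an oligoadenylate synthetase-like gene, was the only effector with higher means in AECII than in PASMC in all 3 conditions. Its medians were 6.43, 6.62 and 6.47 in AECII, where arrays ran from 5.85 to 7.0, and 6.02, 6.08 and 5.66 in PASMC, where they ran from 1.73 to 8.15. Rsad2 (chr12:26442743-26456452) encodes viperin, which makes a chain-terminating nucleotide. It lay near the array median in both cell types, with values of 1.66 to 3.96 in AECII and 1.77 to 4.37 in PASMC. Its mean over AECII arrays did not exceed 2.73, the 30th percentile of named features, so Rsad2 was not tested within AECII and its levels there are given no order.

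Irf7 (chr7:141263183-141266499) encodes the transcription factor that amplifies type I interferon production. It was dim in AECII, with medians of 3.53, 3.78 and 3.61 and values of 2.30 to 4.42. PASMC medians were 4.60, 4.63 and 4.81, and arrays ran from 2.61 to 6.83.

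Cxcl10 (chr5:92346638-92348889) encodes a chemokine that draws activated T cells through CXCR3, and its pattern was the reverse. AECII arrays ran from 6.63 to 9.21 in Ctrl (median 7.42), from 6.91 to 9.18 in 0mg (median 7.06) and from 6.77 to 8.64 in 18mg (median 7.20). PASMC arrays ran from 3.80 to 5.43 (median 4.80), from 3.80 to 6.41 (median 4.90) and from 3.91 to 6.06 (median 5.01). No PASMC array reached the lowest AECII array. A second feature named Cxcl10 had a mean of 2.24, close to the floor of the scale, and followed the first with r = 0.4 over AECII arrays and r = -0.15 over PASMC arrays.

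**Figure D2:**
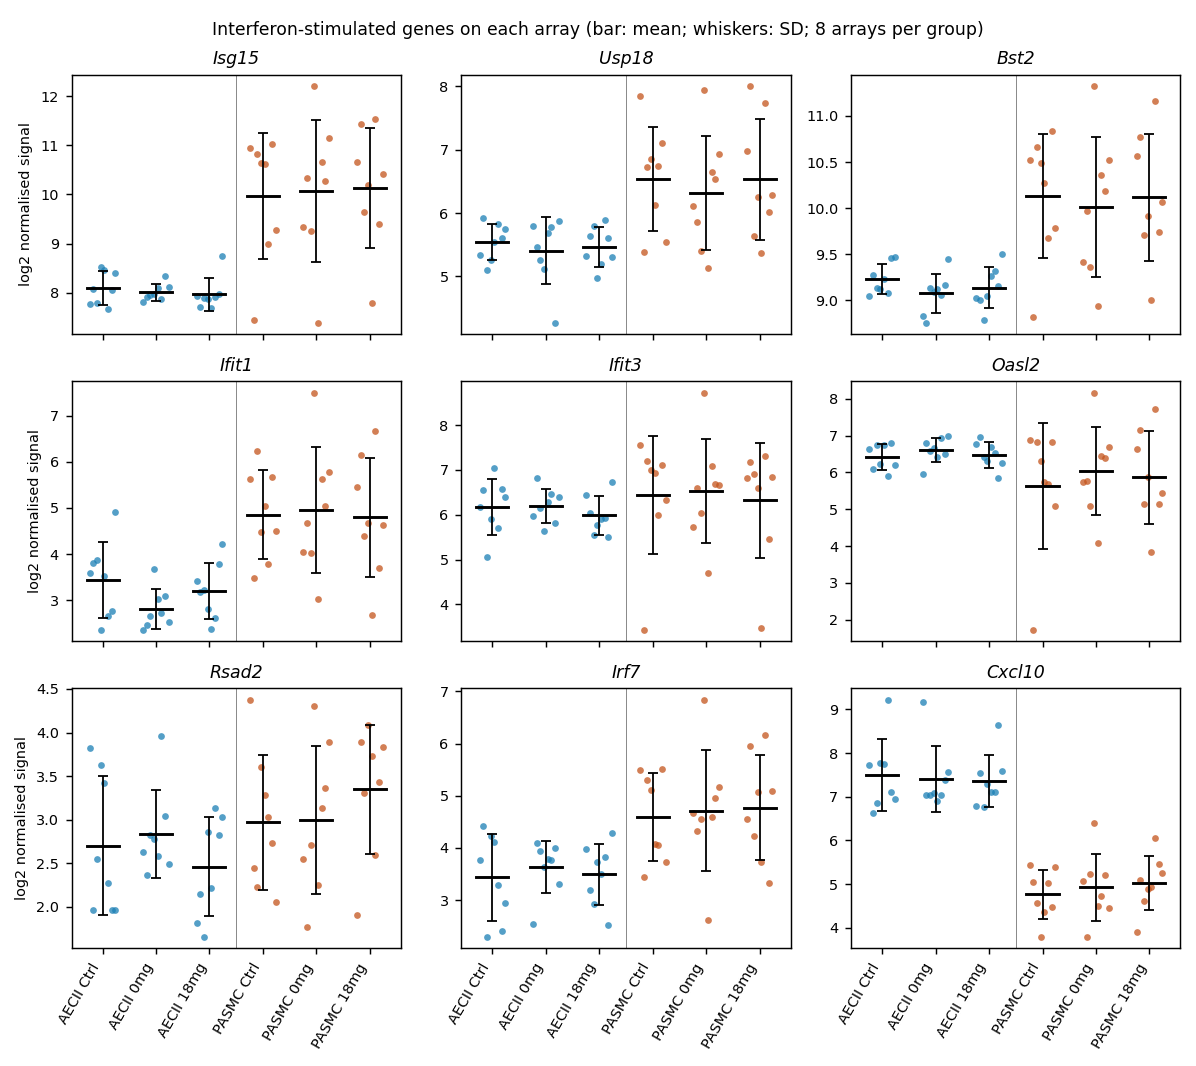
Log2 normalised signal of the 9 genes on each array (points), with group means (bars) and SD (whiskers), 8 arrays per group, AECII in blue and PASMC in orange. Conditions of a cell type overlap for every gene, Cxcl10 alone separates the cell types on every array, and the PASMC points of Isg15 spread from 7.39 to 12.20.

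The first question was whether the vapour extract, without or with nicotine in the liquid, changed these genes. None of the 8 tested members in AECII and none of the 9 in PASMC passed an adjusted p of 0.05 in limma (Benjamini-Hochberg over all genes tested) in any of the 6 comparisons between conditions of a cell type. At an unadjusted p under 0.05 the count of members was also 0 in each. The share of all genes that passed was 0.0% in 5 of the comparisons, over 14477 genes in AECII and 14545 in PASMC, and 0.0275% (4 of 14545 genes) for PASMC 18mg against Ctrl. A count of 0 among the members therefore equals what nearly all genes gave.

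In AECII the extract without nicotine gave differences from control of -0.08 (SE 0.14) for Isg15, -0.15 (SE 0.10) for Bst2 and 0.19 (SE 0.17) for Oasl2, and the extract with nicotine gave -0.12 (SE 0.14), -0.09 (SE 0.10) and 0.05 (SE 0.17). Cxcl10 differed by -0.10 (SE 0.35) and -0.15 (SE 0.35). Ifit1 had the largest difference of the group, -0.62 (95% confidence interval -1.25 to 0.02) with 0mg, at an unadjusted limma p of 0.0557 and an adjusted p of 0.999. Without AECII Ctrl array 8, the highest control, it was -0.41. With 18mg it differed from control by -0.23 (-0.87 to 0.40). The intervals for Isg15 lay within -0.42 and 0.22, so larger shifts of its mean in AECII lay outside them. The median difference over the 8 tested members was -0.09 with 0mg and -0.107 with 18mg, against 0.01 and 0.012 over all genes.

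In PASMC the same comparisons were far less precise. Isg15 differed from control by 0.11 (-1.19 to 1.41) with 0mg and by 0.17 (-1.13 to 1.47) with 18mg, intervals that still hold changes beyond a doubling in either direction. Ifit1 gave 0.11 (SE 0.58) and -0.06 (SE 0.58), Oasl2 0.41 (SE 0.67) and 0.23 (SE 0.67), Cxcl10 0.16 (SE 0.32) and 0.26 (SE 0.32), and Bst2 -0.12 (SE 0.34) and -0.02 (SE 0.34). Rsad2 had the largest difference with 18mg, 0.38 (SE 0.38). Single arrays set the sign of several of these: without PASMC Ctrl array 2, which was lowest in most members, Isg15 gave -0.25 with 0mg and -0.19 with 18mg. Members had a median difference of 0.109 with 0mg and 0.169 with 18mg, against 0.004 and 0.007 over all genes.

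Nicotine itself was addressed by 18mg against 0mg. No member passed, and the median difference of members was -0.046 in AECII and 0.06 in PASMC, against 0.003 and 0.006 over all genes. Differences ran from -0.21 to 0.38 in AECII and from -0.20 to 0.35 in PASMC. The response of AECII minus that of PASMC was tested as an interaction over all 48 arrays: 0 of 9 members and 0.0% of 14775 genes passed in limma with either extract, and 0 members had an unadjusted p under 0.05. Rsad2 was among these 9 only because of its PASMC signal, since it did not exceed the filter in AECII.

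**Figure D3:**
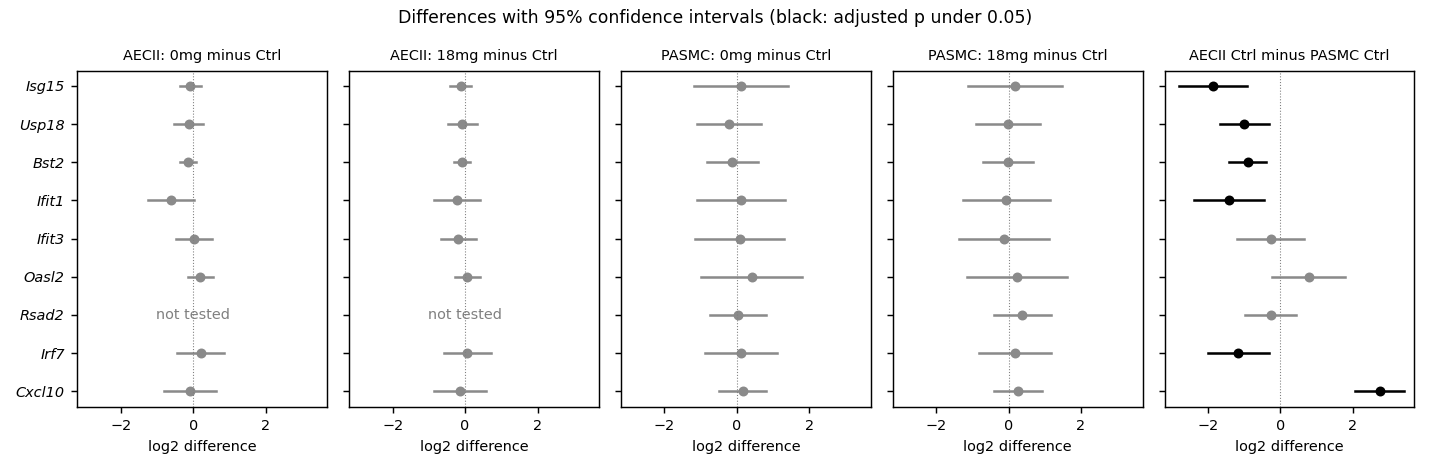
Log2 differences of the 9 genes with 95% confidence intervals from limma, for each extract against control in each cell type and for AECII Ctrl minus PASMC Ctrl; black marks an adjusted p under 0.05. All intervals against control include 0 and are wider in PASMC, while 6 genes pass between the cell types.

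Between the control cultures, 6 of the 9 members differed. Cxcl10 was 6.68-fold higher in AECII (log2 difference 2.74, SE 0.34, limma adjusted p = 1.81e-09). Isg15 was 3.66-fold higher in PASMC (log2 difference of AECII minus PASMC -1.87, SE 0.46, limma adjusted p = 0.000553), Usp18 2.0-fold (-1.0, adjusted p = 0.00964) and Bst2 1.87-fold (-0.91, adjusted p = 0.00206). Ifit1 (-1.42, limma adjusted p = 0.00939) and Irf7 (-1.16, limma adjusted p = 0.0152) were also higher in PASMC, but their AECII signals lay near the array median, so no fold is given. Ifit3 (-0.27), Rsad2 (-0.27) and Oasl2 (0.78, 95% confidence interval -0.22 to 1.79) did not pass. Rsad2 did not exceed the filter in AECII, so it was tested here only because of its PASMC signal. So 1 member was higher and 5 were lower in AECII, in a comparison in which 59.2% of 14775 genes passed, 27.9% higher and 31.3% lower. The median difference was -0.905 over the members and -0.044 over all genes. With 6 of 9, the members' share is near that of all genes, and being called here is not particular to them.

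The distance between cell types did not hold on every array. All 8 control PASMC arrays were below all AECII controls for Cxcl10. For Isg15 and Bst2, 7 of 8 control PASMC arrays were above all AECII controls and 1 was below them all. For Usp18 6 of 8, and for Ifit1 and Irf7 4 of 8, lay above all AECII controls. Oasl2 had 3 PASMC arrays above and 4 below the whole AECII range. How many of all genes separate the control arrays in this way was not counted, so these counts only describe the members. The direction of each of the 9 differences was kept under every alternative run. The called Isg15 difference stayed between -2.25 and -1.72, whereas Cxcl10 fell to 1.34 when the dim second feature was averaged with the first. The sizes of the 3 differences that did not pass moved widely: from -0.70 to -0.11 for Ifit3, from 0.23 to 0.96 for Oasl2 and from -0.49 to -0.07 for Rsad2. Without PASMC Ctrl array 2, Ifit3 stood at -0.70 and Oasl2 at 0.23.

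Most members also spread more within a PASMC condition than within an AECII condition. After centring each condition on its mean, the within-group SD of Isg15 was 1.32 in PASMC and 0.29 in AECII. Corresponding SDs in PASMC and AECII were 1.41 and 0.34 for Oasl2, 1.25 and 0.49 for Ifit3, 1.22 and 0.64 for Ifit1, 1.01 and 0.65 for Irf7, 0.89 and 0.39 for Usp18, and 0.71 and 0.20 for Bst2. Rsad2 (0.79 and 0.63) differed less, and Cxcl10 was the exception, with 0.66 in PASMC and 0.73 in AECII. The median gene had an SD of 0.37 in PASMC and 0.32 in AECII. Isg15, Ifit1, Ifit3 and Oasl2 varied more than 98.5%, 98.0%, 98.2% and 98.8% of the genes tested in PASMC, whereas Isg15 ranked above only 46.1% in AECII. Group means of a member differed by at most 0.41 in PASMC, so the spread lay within the conditions.

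In each PASMC condition the array lowest in Isg15 was lowest for most other members, and at the high end this held in the 0mg and 18mg conditions. In PASMC Ctrl, array 2 had the lowest Isg15 (7.44) and also the lowest value of 6 of the other 8 members: Ifit1, Ifit3, Irf7, Oasl2, Usp18 and Bst2. Array 5 of PASMC 0mg (Isg15 7.39) was lowest for the same 6, and array 5 of PASMC 18mg (7.78) for 5 of them, all but Irf7. At the other end, array 4 of PASMC 0mg (Isg15 12.20) was highest for all 8 other members, and array 6 of PASMC 18mg (11.53) for 6 of 8, but array 7 of PASMC Ctrl (11.02) for 2 of 8, Irf7 and Bst2. These numbers are the labels' replicate numbers, and no array was matched to an array of another condition by its values. Among AECII arrays, the lowest Isg15 array of a condition was also lowest for 1 to 3 of the other 8 members. The highest was also highest for 0 of 8 in Ctrl and 0mg and for 4 of 8 in 18mg, where array 8 led in Ifit1, Ifit3, Irf7 and Bst2.

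After this was seen, Isg15 was set against the other members over the 8 arrays of each condition, so the tests measure a pattern noticed in the same values. They were part of 66 relations over the 6 groups with p-values adjusted over all 66 (Benjamini-Hochberg). Isg15 and Bst2 gave r = 0.99 in Ctrl (rho = 0.98, exact permutation p = 0.000149, adjusted 0.00246), 0.97 in 0mg (rho = 0.98, exact permutation p = 0.000273, adjusted 0.0036) and 0.96 in 18mg (rho = 0.98, exact permutation p = 4.96e-05, adjusted 0.00164). Without the 2 arrays farthest from the median of Isg15 the r was 0.94, 0.98 and 0.94, so the relation of Isg15 and Bst2 did not rest on those arrays. Of the 8 members set against Isg15, 5 passed by Pearson's r in PASMC Ctrl, 6 in PASMC 0mg and 6 in PASMC 18mg. By rank the counts were 5, 5 and 6: Irf7 in PASMC 0mg had r = 0.92 but rho = 0.74 (exact permutation p = 0.0458, adjusted 0.126), and its r was 0.48 without the 2 farthest arrays. Rsad2 and Cxcl10 passed in none of the 3: Cxcl10 gave r = -0.42, 0.40 and 0.21. In AECII the counts were 0, 0 and 1, the one being Ifit1 in 18mg (r = 0.78, rho = 0.83, exact permutation p = 0.0105, adjusted 0.033), whose r dropped to 0.31 without the 2 farthest arrays. Bst2 and Isg15 gave r of 0.43, 0.62 and 0.60 in AECII, none of which passed, although the ranks in 0mg did (rho = 0.83, exact permutation p = 0.0154, adjusted 0.0483).

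Over all 24 centred arrays of a cell type, the 21 pairs among the 7 members other than Rsad2 and Cxcl10 had r from 0.76 to 0.97 in PASMC (median 0.88). The same pairs ran from -0.21 to 0.51 in AECII (median 0.07). Those 7 genes were separated from the other pair after their values were seen, so the ranges are a description. Rsad2 and Cxcl10 had r of 0.36 and 0.24 with the mean of the other members in PASMC, and for Rsad2, whose signal was near the median of the array, a low correlation has little weight.

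**Figure D4:**
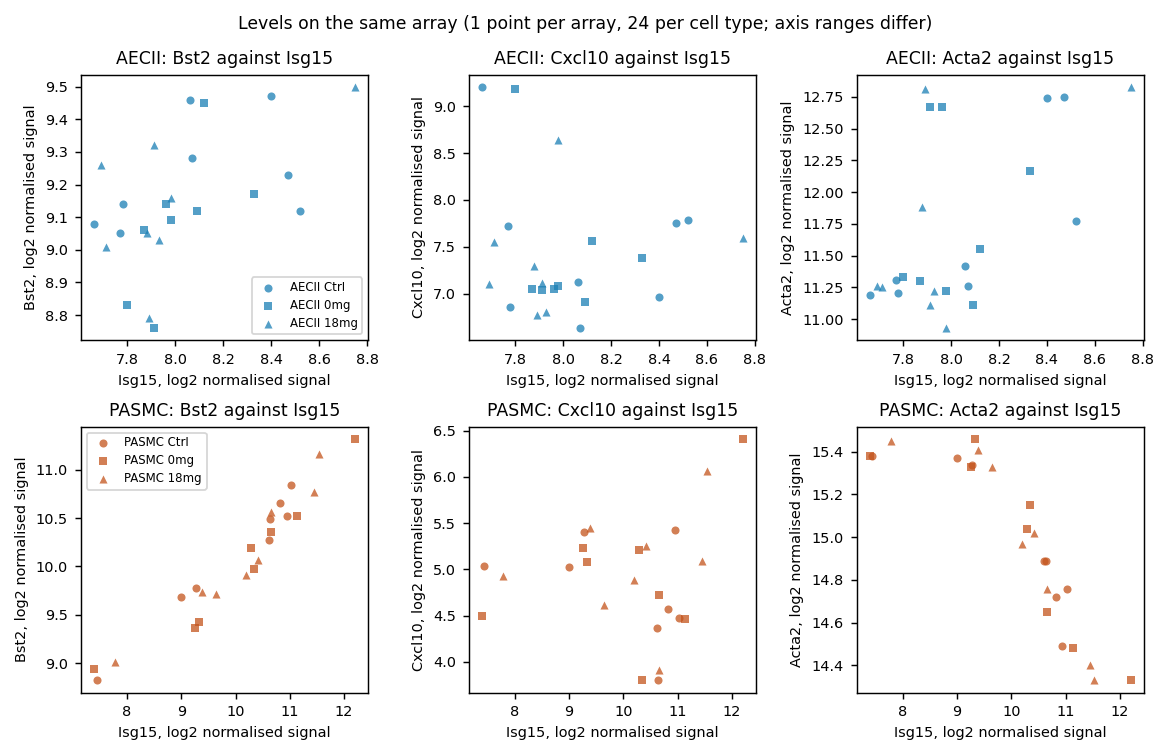
Log2 signal of Bst2, Cxcl10 and the smooth muscle gene Acta2 (y) against Isg15 (x) on the same array, 24 AECII arrays (upper row) and 24 PASMC arrays (lower row), with conditions by marker shape and axis ranges that differ. In PASMC Bst2 rises and Acta2 falls with Isg15 in each condition, with r of 0.96 to 0.99 and of -0.91 to -0.86, and Cxcl10 shows no such line.

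Genes outside the group were ranked by the correlation of their centred values with the mean of the tested members over the 24 arrays of each cell type. These correlations have no p, since the 24 arrays of a cell type came from no more than 8 mice. In PASMC the 6 genes most like the members were Rtp4 (r = 0.97), Lgals3bp (0.96), Ifitm3 (0.95), Xaf1 (0.95), Ddit4 (0.95) and Igtp (0.95). All but Ddit4, a stress-induced inhibitor of mTOR signalling, stood on the lists of interferon pathway genes. Rtp4 ranged from 5.55 to 8.35 in Ctrl, from 5.51 to 10.12 in 0mg and from 4.98 to 9.38 in 18mg, and Ifitm3, which blocks viral entry, from 10.57 to 13.15, from 10.79 to 13.47 and from 10.87 to 13.40. In AECII the 6 most like were Tmem167b (0.80), Slc28a1 (0.77), Ankrd40 (0.72), Igtp (0.70), Ifi27l2b (0.70) and Dnajc12 (0.70), of which Igtp alone was on a pathway list.

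Of the 88 other pathway genes tested in PASMC, 39 (44.3%) had r above 0.8 with the members, against 698 of the 14448 remaining genes (4.83%). Above 0.5 the counts were 56 of 88 (63.6%) and 2778 of 14448 (19.2%). The median r was 0.76 for the pathway genes and -0.01 for the remaining genes. A further 18.8% of the remaining genes had r below -0.5, so a large part of the genes measured in PASMC shifted with or against the members. In AECII, 9 of 87 pathway genes (10.3%) and 277 of 14382 others (1.93%) had r above 0.5, and 0 of either set exceeded 0.8. The members and the lists were chosen with earlier results of these data known, so these contrasts are descriptions and no independent support. Among genes picked after their values were seen, Stat2 and Irf9, which take part in binding the response element, both had r = 0.94 in PASMC, and Tnfaip3, which restrains inflammatory signalling, had r = -0.89.

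**Figure D5:**
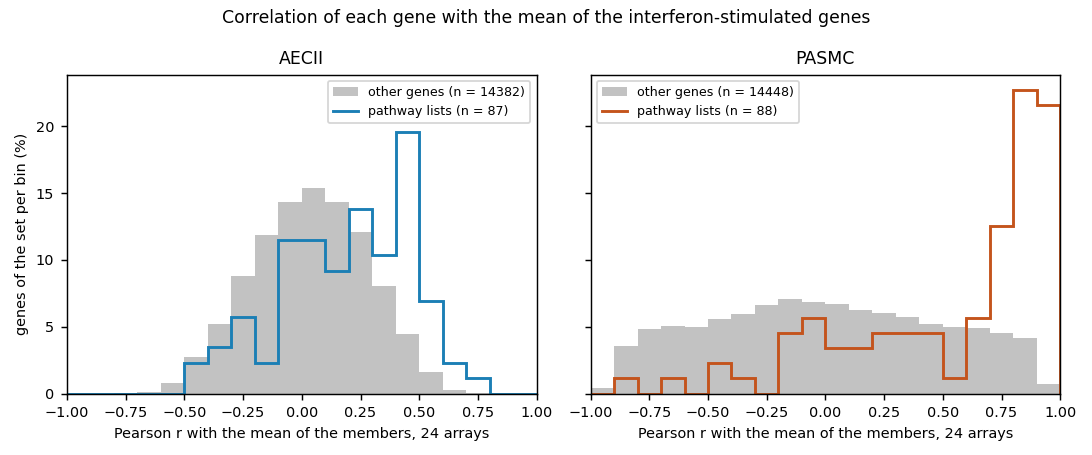
Percentage of genes per bin of Pearson r with the mean of the interferon-stimulated genes, over 24 condition-centred arrays, for AECII (left) and PASMC (right); coloured lines are other genes of the interferon pathway and grey areas all remaining tested genes, members excluded. In PASMC the pathway genes pile up at the right, with a median r of 0.76, and the remaining genes spread widely around -0.01.

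Marker genes of cell types moved with the members in PASMC. The summed signal of the 9 smooth muscle markers correlated with the mean of the members at r = -0.87 over the 24 centred PASMC arrays, with all 9 genes between -0.89 (Acta2) and -0.42 (Smtn). The 6 fibroblast markers gave r = 0.87, with all 6 between 0.65 (Lum) and 0.89 (Mfap5), and the 6 epithelial markers gave r = -0.87, with all 6 between -0.88 (Krt8) and -0.65 (Cldn4). All smooth muscle, fibroblast and epithelial markers had means above the array median in PASMC Ctrl and 18mg, and all but Epcam in PASMC 0mg. On the log2 scale the sums in PASMC Ctrl, 0mg and 18mg ran from 16.29 to 17.13, 16.18 to 17.19 and 16.19 to 17.29 for smooth muscle and from 14.17 to 15.70, 14.31 to 15.74 and 14.33 to 15.78 for fibroblasts. Epithelial sums ran from 7.29 to 12.81 in PASMC Ctrl, from 7.04 to 12.56 in 0mg and from 7.36 to 12.36 in 18mg. Acta2 against Isg15 gave r = -0.88 in Ctrl (rho = -0.93, exact permutation p = 0.000471, adjusted 0.00382), -0.86 in 0mg (rho = -0.90, exact permutation p = 0.00303, adjusted 0.0111) and -0.91 in 18mg (rho = -0.98, exact permutation p = 0.000521, adjusted 0.00382). Without the 2 farthest arrays these were -0.92, -0.93 and -0.99. The arrays lowest in Isg15 had Acta2 at 15.38 to 15.45, close to the top of the scale, and the arrays highest in Isg15 had it at 14.33 to 14.76. The part of these markers in the spread of the members was not tested.

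The sums of the other marker lists lay nearer to 0. The 10 macrophage markers gave r = -0.20 in PASMC, although Marco, a scavenger receptor of macrophages, ranged from 7.24 to 13.07 there, and the 5 pan-leukocyte markers gave -0.30. The r was -0.30 for endothelial, -0.20 for neutrophil, 0.07 for lymphocyte and -0.32 for AECII markers. Single genes of these lists went further, from -0.74 (Lamp3) to 0.53 (Etv5) among AECII markers and down to -0.55 (Cdh5) among endothelial markers. Sftpc and Isg15 gave r = -0.05, -0.04 and 0.18 in the PASMC conditions, and Marco and Isg15 gave -0.09, -0.17 and -0.22, none of which passed. Plasmacytoid dendritic cells, strong producers of interferon, are marked by 5 listed genes of which Bst2 is a member here, and the other 4 gave r = 0.15 in PASMC, with single genes from -0.10 (Runx2) to 0.79 (Tcf4), and -0.54 in AECII. That sum was carried by the Siglech feature, which read 13.84 in AECII Ctrl and 12.98 in PASMC Ctrl, while Ccr9 was under the array median in both. The other list sums in AECII lay between -0.39 and 0.43. There the smooth muscle, epithelial and fibroblast sums gave r = 0.40, 0.36 and 0.04, against -0.87, -0.87 and 0.87 in PASMC. Single smooth muscle genes ran from -0.27 (Lmod1) to 0.54 (Myl9). Acta2 against Isg15 gave r = 0.80, 0.12 and 0.60 in AECII Ctrl, 0mg and 18mg. The Ctrl value passed by r (exact permutation p = 0.0154, adjusted 0.0461) but not by rank (rho = 0.81, exact permutation p = 0.0218, adjusted 0.0653).

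The other genes of the pathway were taken from 11 role lists with 98 genes on the array. No list had a gene that passed between conditions in limma: 0 of 87 tested genes in AECII and 0 of 88 in PASMC, for each extract and for 18mg against 0mg. Cgas, the cytosolic DNA sensor, had the smallest unadjusted p of the lists in PASMC. It differed from PASMC control by 0.29 (SE 0.09) with 0mg and by 0.27 (SE 0.09) with 18mg, at limma adjusted p of 1.00 and 0.845. Its difference with 0mg in AECII was 0.35 (SE 0.14), adjusted p = 0.999. Nlrx1, a mitochondrial restraint of the pathway, differed by -0.51 (SE 0.16) with 18mg in AECII, adjusted p = 1.00. The ligands were dim: 3 of 7 passed the filter in each cell type, and Ifnb1, Ifng and Ifnk passed in neither.

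Between the controls, 25 of 89 tested pathway genes were higher in AECII, 30 were lower and 34 did not pass. Over all 14775 genes 59.2% passed, 27.9% higher and 31.3% lower. The shares of the pathway genes are near these, so being called here is not particular to them. The splits by list given below are descriptions. Of the 6 interferon receptors, Ifnlr1, the type III receptor chain, was higher in AECII (8.36 ± 0.30 against 3.40 ± 0.36, SD, n = 8 each), and Ifnar1, Ifnar2 and Ifngr2 were among 4 that were lower. Of 5 kinases and transducers, 2 passed and both were lower in AECII: Jak1 (-1.01) and Stat2 (-1.07). Of 14 other antiviral effectors tested, 5 were higher and 2 lower. Mx1 read 6.59 ± 0.43 in AECII and 2.18 ± 0.39 in PASMC (SD, n = 8 each). Its means lay under the array median in every PASMC condition. Mx1 did not exceed the filter in PASMC, so it was tested here only because of its AECII signal. Ifitm2 was lower in AECII by -1.64. Sensors split into 3 higher and 6 lower, led by Zbp1, a sensor of Z-form nucleic acid, at 2.86 ± 0.56 in AECII and 7.61 ± 1.35 in PASMC (SD, n = 8 each).

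Antigen presentation genes were higher in AECII in 5 of 10 cases, among them H2-K1 (2.68), Tapbp (2.15) and H2-D1 (1.73), and lower in 2, B2m (-1.35) being one. Of 6 restraints, Tnfaip3 was higher in AECII (2.97) and Socs3 (-1.97), Trex1 (-1.21) and Socs1 (-0.99) were among 4 lower. The enzymes that attach ISG15 to proteins split: Uba7, the activating enzyme, was higher in AECII (1.74, limma adjusted p = 0.000207), Ube2l6, the conjugating enzyme, was lower (-0.66, limma adjusted p = 0.0173) and Herc6, the ligase, did not pass. Of the 21 other inducible genes tested, 4 were higher, among them Nmi (2.44) and Ly6e (2.01), and 9 were lower, among them Irgm1 (-1.23) and Ifi27 (-1.18). Irf5 (1.72), Irf1 (0.63) and Irf2 (0.56) were the 3 of 5 regulatory factors that passed, all higher in AECII. Both tested chemokine genes passed: Ccl5 was higher in AECII by 0.94, and Cxcl11 read 15.03 in AECII and 14.88 in PASMC, close to the top of the scale at 15.89. The Cxcl11 means stayed between 14.87 and 15.03 in every group. Whether this feature measures Cxcl11 was not checked, so its call carries little weight. None of the 3 ligands tested passed.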

How the data were processed

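Signals of 48 single-colour Cy3 Agilent arrays were used, 8 in each of 6 groups taken from the labels. The authors deposited 1 table of log2 values for 62976 features; the submitters' processing notes name limma, with no version or step. All deposited arrays share 1 distribution of log2 values, so they had been normalised to each other, and raw intensities were not analysed here. A gene name was available for 31465 features, 29050 of them matched by accession to the RefSeq gene table (GRCm38.p6), and none carried several names. Where a gene had several features, the brightest on average stood for it, which left 20738 genes.

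Genes with a mean log2 signal above 2.73, the 30th percentile of named features, over the arrays of a fit were tested with limma 3.58.1 in R 4.3.3 (lmFit and eBayes, two-sided, Benjamini-Hochberg, adjusted p under 0.05). Conditions were compared in 1 fit of 24 arrays per cell type, and cell types and interactions in 1 fit of 48, which assumes 1 spread for both. The fits were also run on simulated data with independent noise on each array. Those data do not show how arrays that share a mouse affect the fits, and no result here rests on them. The number of arrays limits the precision. Correlations within a group used exact permutation tests over all pairings.

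The text names all members, up to 4 genes of each pathway list that passed by smallest p (or the 1 with the smallest p), the 6 genes most like the members in each cell type, Sftpc, Acta2 and the brightest gene of a marker list; other named genes were chosen after their values were seen. Members and lists were chosen with earlier results of these data known. Alternatives covered the filter, normalisation, feature choice, arrays fitted, array weights, variance model, blocks and leaving out each array.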

Additional observations from a re-analysis of the deposited data

Results flagged for a closer look

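In each of the 54 sets of 8 arrays (9 genes in 6 groups), the gap between the most extreme array and its nearest neighbour was compared with the range of the set, and 8 sets exceeded Dixon's 95% limit of 0.526. Chance gives about 1 in 20 sets, or 2.7 of 54. For Cxcl10 1 array stood above the other 7 in each AECII condition: array 6 of Ctrl at 9.21 (the next at 7.78), array 1 of 0mg at 9.18 (the next at 7.56) and array 7 of 18mg at 8.64 (the next at 7.59). Isg15 was high on array 8 of AECII 18mg, at 8.75. In PASMC Ctrl, array 2 was low for Oasl2, at 1.73 against 5.10 for the next array, and for Ifit3, at 3.44 against 5.99. Rsad2 was high on array 6 of AECII 0mg, at 3.96, and Usp18 was low on array 7 of AECII 0mg, at 4.27.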

How the results depend on the processing

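No count of members that passed changed between conditions under any alternative: it was 0 in each of the 6 comparisons and both interactions. Between the controls it was 6 under all alternatives except the filter at the 50th percentile (log2 mean above 4.46), where 4 of the 6 members still tested passed. Single differences were followed for 30 results, which do not cover every member against control. Signs changed for some of those against control, none of which passed under any setting run. With the mean of all features of a gene, Isg15 in AECII 0mg gave 0.0862 and Cxcl10 in AECII 18mg gave 0.0941. With array weights, Isg15 in PASMC 0mg gave -0.109, and Ifit1 and Oasl2 in PASMC 18mg gave 0.000905 and -0.0500. With PASMC arrays whose Sftpc was at or below 6, an alternative chosen after seeing the data, Isg15 gave -0.0318 in 0mg and -0.1015 in 18mg. The cause was not tested. Leaving out each array in turn changed a sign for 12 of these 30 differences. In AECII the ranges were -0.3527 to 0.1451 (Cxcl10, 0mg), -0.0193 to 0.143 (Oasl2, 18mg) and -0.3319 to 0.0962 (Cxcl10, 18mg). In PASMC 0mg they were -0.2517 to 0.4929 (Isg15), -0.2516 to 0.3872 (Ifit1), -0.151 to 0.6855 (Oasl2), -0.0498 to 0.3232 (Cxcl10) and -0.3103 to 0.0303 (Bst2), and in PASMC 18mg -0.1919 to 0.5045 (Isg15), -0.3294 to 0.2438 (Ifit1), -0.3271 to 0.5206 (Oasl2) and -0.2038 to 0.1417 (Bst2).

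The labels' replicate numbers were not taken as a pairing: deviations of same-numbered arrays correlated from -0.21 to 0.28 in AECII and from -0.40 to 0.62 in PASMC. With the number as a replicate block, 0 members passed between conditions and 6 between the controls. Since the number is not tied to a mouse, that block cannot show what accounting for mice would give. Signals near the floor of the scale (Rsad2, Ifit1 and Irf7 in AECII) limit how small a difference could be seen.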
